A study of Homarus americanus with 19 samples.

Results

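The annotation of the American lobster genome gives some genes a long list of alternative transcripts, and the question followed here is how each larva divides a gene's reads among them. The genes were chosen in the transcript count table as those with at least 8 annotated transcripts (rows of the table) and a gene total of at least 50 counts in every larva. Of 25667 genes, 566 had 8 or more rows and 517 of these also met the count minimum, and the 300 with the most rows were kept, with ties broken by total count. They held 4401 of the 46006 rows, with 9 to 50 rows a gene and a median of 12, and 5.38% of all counts. They were thus chosen by their number of rows and their measured gene totals, and not by transcript shares. The last gene kept, LOC121879946, had 9 rows and 49357 counts over all larvae, and the first left out, LOC121876509, had 9 rows and 46767 counts. Of the 300 genes, 297 were annotated as protein coding and 3 as lncRNA.

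A gene makes alternative transcripts by starting at different promoters, by joining its exons in different combinations or by ending at different polyadenylation sites. In arthropods the best known cases are muscle genes, where alternative exons adapt the contractile proteins to fibre types and stages, and signalling and cell adhesion genes. A change in the mix of transcripts can alter the protein made or the untranslated ends of the mRNA without any change in the gene's total.

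The samples were whole stage I larvae of Homarus americanus, labelled embryonic day 9, each sequenced as 1 library after a 24 h exposure. They were 6 larvae in 1-methylnaphthalene at 0.3 mg/L, 7 larvae in 72% WAF (the water-accommodated fraction of an oil) and 6 control larvae in seawater passed through a 0.22 µm filter. All tissues of a larva are mixed in 1 library, so fewer cells of a type and less RNA per cell cannot be told apart, and a shift of transcripts within cells cannot be told apart from a shift in the cells that use them. Total estimated counts lay between 14295653 and 44466373 a larva. One lncRNA, LOC121857831, took between 7.44% and 28.0% of all counts of a larva, and since many transcript shares moved with it, its share is given beside them. It is not one of the 300 genes.

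The measure throughout is the share, the estimated count of a transcript as a percentage of the summed counts of all rows of its gene in the same larva. A share is not corrected for transcript length, so it ranks transcripts by reads and not by molecules. Annotated transcripts were used to very different degrees. Over all larvae 368 of the 4401 rows had no count at all, 819 rows (18.6%) had a mean share below 0.1%, and 1415 had a mean share of at least 5%. A gene had a median of 5 transcripts with a mean share of at least 5%, and between 1 and 10 of them. It had a median of 8 with a mean share of at least 1%. The transcript with the highest mean share, called the leading transcript here, held a median of 38.3% of its gene's counts. It held at least 50% in 79 genes and at least 90% in 1 gene, LOC121860138, whose XM_042357176.1 averaged 95.4%.

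The effective number of transcripts, which is the inverse of the summed squared shares, says how many equally used transcripts would give the same spread. It had a median of 3.50 over the 300 genes. It followed the number of annotated rows only loosely (Spearman's rank correlation 0.37 across the 300 genes, which are not independent replicates). The 3 genes with 50 rows each show this. LOC121876609 put a mean of 60.4% of its counts into XM_042381880.1 and had an effective number of 2.61. LOC121861916 had an effective number of 3.38, and LOC121879115 one of 6.56. The next genes by rows were LOC121858215 with 49 rows and LOC121880079 with 47 rows, whose leading transcripts averaged 50.6% and 37.1%. At the other end, LOC121868246 with 36 rows spread its counts over an effective 17.6 transcripts, and its leading transcript averaged 10.3%, the lowest of all 300 genes.

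**Figure D1:**
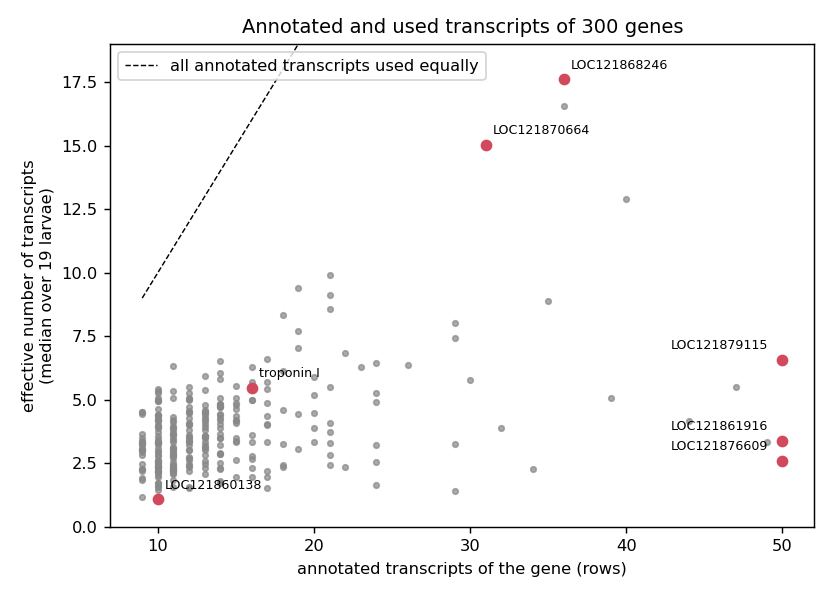
Annotated transcripts (horizontal axis, rows per gene) against the effective number of transcripts (vertical axis, median over 19 larvae) for the 300 genes, 1 point a gene, with some of the genes named in the text in red. All points lie below the dashed line of equal use, and the 3 genes with 50 rows sit between 2.61 and 6.56.

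How many transcripts a gene used differed between larvae of 1 group more than between groups. The median effective number over the 300 genes had a lowest, median and highest value of 3.10, 3.72 and 4.05 in methylnaphthalene larvae, of 2.85, 3.19 and 4.19 in WAF larvae, and of 3.11, 3.65 and 3.98 in control larvae. The ranges overlap widely, and the lowest and the highest of all larvae were both WAF larvae. Group means were 3.65 ± 0.395 in methylnaphthalene larvae (SD, n = 6), 3.39 ± 0.457 in WAF larvae (SD, n = 7) and 3.64 ± 0.311 in control larvae (SD, n = 6), differences smaller than these SDs. Gene by gene, the effective numbers of methylnaphthalene larvae lay wholly outside the control range in 2 of the 300 genes, against a background of 0.769% of 4944 genes with at least 2 rows and 50 counts in every larva. For WAF against control it was 0 genes (background 0.0607%), and for methylnaphthalene against WAF 2 genes (background 0.243%).

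The order of the larvae followed the share of LOC121857831. WAF larva 1, with 28.0% of its counts in that lncRNA, had the lowest median effective number, 2.85, and WAF larva 6, with 7.47%, had the highest, 4.19. Methylnaphthalene larva 3 (26.4%) had 3.10 and methylnaphthalene larva 5 (7.44%) had 4.05. Among controls, larva 4 (20.5%) had 3.11 and larva 5 (11.4%) had 3.98. Pearson's r was -0.954 and Spearman's rank correlation -0.932 over the 19 larvae, and r was -0.947 without the 2 larvae farthest from the median lncRNA share. Within groups r was -0.998 in methylnaphthalene larvae, -0.954 in WAF larvae and -0.915 in control larvae. These are descriptions, and both values of a point come from the same library. Sequencing depth followed the effective number less closely (r = 0.413 with log10 total count). With every larva thinned to 14295653 counts the r with the lncRNA share was -0.949. Thinning made the total counts equal, but not the counts on the chosen genes. Their part of all counts ran from 4.18% in methylnaphthalene larva 3 (lncRNA share 26.4%) to 6.58% in control larva 6 (lncRNA share 10.2%). The part of read depth on these genes was thus not tested.

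**Figure D2:**
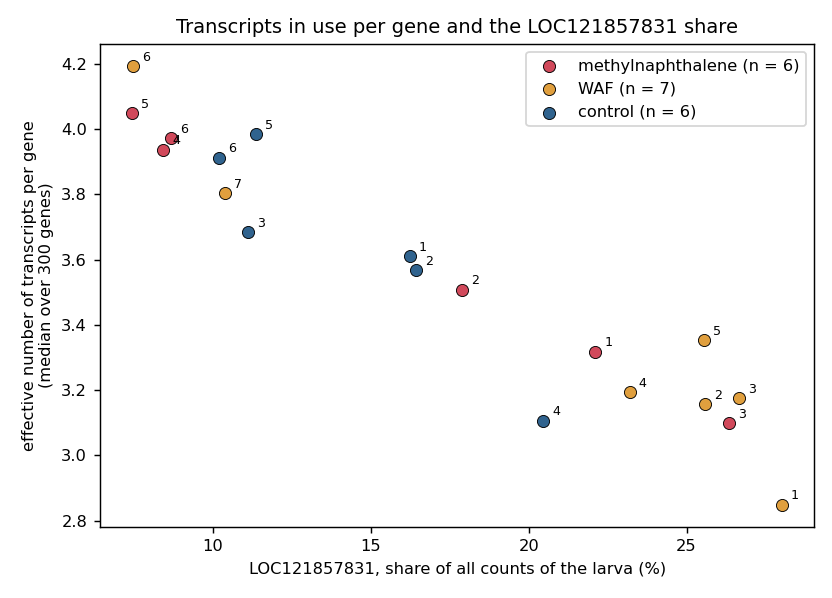
Share of all counts taken by the lncRNA LOC121857831 (horizontal axis, %) against the effective number of transcripts per gene (vertical axis, median over 300 genes), 1 point a larva, coloured by group and numbered by replicate. The points fall in a downward band shared by all groups, with WAF larva 1 at 28.0% and 2.85 and WAF larva 6 at 7.47% and 4.19.

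The same ordering appeared in single transcripts. Of 1409 transcripts of these genes with enough counts to compare (mean count at least 10, mean share at least 5%), the share of 186 correlated with the lncRNA share at r above 0.7, and that of 198 at r below -0.7, both after group means were subtracted. That is 27.3% of them, beside 19.2% of 11445 such transcripts of other genes. Their median count was 249, against 186 in transcripts of other genes. In LOC121869643, among the 5 genes with the highest totals, the share of XM_042371166.1 was 23.8%, 44.0% and 51.0% at its lowest, median and highest in methylnaphthalene larvae. It was 19.5%, 23.9% and 49.6% in WAF larvae, and 23.8%, 36.4% and 43.4% in control larvae. Its r with the lncRNA share was -0.98. The transcript XM_042371164.1 of the same gene went the other way (r = 0.97), at 2.59% to 32.0% in methylnaphthalene larvae, 2.52% to 37.9% in WAF larvae and 3.81% to 25.9% in control larvae.

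LOC121861916, the gene with 50 rows and the most counts among the 5 with most rows, kept 1 transcript steady while 2 others traded places. Its leading transcript XM_042359852.1 averaged 37.6 ± 5.05% in methylnaphthalene larvae (SD, n = 6), 37.6 ± 5.70% in WAF larvae (SD, n = 7) and 40.7 ± 6.79% in control larvae (SD, n = 6). XM_042359854.1 held 54.9% in WAF larva 1 and 39.9% in methylnaphthalene larva 1, but 0.00316% in WAF larva 6 and 0.00373% in methylnaphthalene larva 6. XM_042359843.1 ran opposite, at 6.03% in WAF larva 1 and 36.5% in WAF larva 6. Both transcripts ranged widely in every group, and the groups overlap. In LOC121878757 the leading transcript itself ranged widely. Its XM_042385146.1 ran over 13.6% to 63.3% in methylnaphthalene larvae, 10.8% to 53.0% in WAF larvae and 12.4% to 39.5% in control larvae.

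Troponin I (LOC121866781), the inhibitory subunit of the thin filament regulator in striated muscle, was the named gene with the most counts, and 6 of its 16 rows had a mean share of at least 5%. The share of XM_042366509.1 in methylnaphthalene larvae 1 to 6 was 0.588%, 1.12%, 0.579%, 18.7%, 18.5% and 20.0%. In WAF larvae 1 to 7 it was 1.93%, 1.58%, 2.26%, 0.878%, 0.806%, 22.1% and 16.4%, and in control larvae 1 to 6 it was 9.65%, 8.28%, 18.9%, 14.0%, 19.2% and 22.2%. Each exposed group thus held larvae with shares of 0.579% to 2.26% beside larvae at the upper end of the control range, and no control larva lay below 8.28%. Within groups the share fell with the lncRNA share (r = -0.93), but control larva 4, with the highest lncRNA share of the controls (20.5%), held more than control larvae 1 and 2. XM_042366510.1 ran opposite, with 16.7%, 23.9% and 32.5% at the lowest, median and highest in methylnaphthalene larvae, 16.9%, 29.2% and 32.3% in WAF larvae, and 15.0%, 17.9% and 21.8% in control larvae.

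The mean difference of XM_042366509.1 was -8.80 percentage points for WAF against control, with an adjusted p of 1 by edgeR's quasi-likelihood test of transcript use, and -5.46 points for methylnaphthalene against control, also with an adjusted p of 1. With limma on log2 CPM the WAF difference had an adjusted p of 0.0200, and with the replicate number as a block in edgeR one of 0.00698. With the log2 ratio of the transcript to the rest of its gene as the measure, limma gave an adjusted p of 0.809. For methylnaphthalene against control, edgeR with the lncRNA share as a covariate, a setting added with the results known, gave 0.000986. The total of the gene also had a lower median, 3120 CPM in methylnaphthalene larvae and 2797 CPM in WAF larvae, against 4857 CPM in control larvae. The ranges overlap, at 2130 to 4718 CPM in methylnaphthalene larvae, 2383 to 4948 CPM in WAF larvae and 4546 to 5892 CPM in control larvae. Of the muscle markers looked up, 2 genes could be matched by name, troponin I itself and sarcoplasmic calcium-binding protein 1, and neither was at 0 in all larvae of a group. Their summed level was 3505 to 9701 CPM in methylnaphthalene larvae and 4402 to 11099 CPM in WAF larvae, against 10325 to 12661 CPM in control larvae. Epidermis and cuticle markers (29 genes, 2 of them at 0 in all methylnaphthalene larvae) summed to 958 to 2278 CPM in methylnaphthalene larvae and 1187 to 2588 CPM in WAF larvae, against 1248 to 3625 CPM in control larvae. Haemocyte markers (5 genes) summed to 92.5 to 642 CPM in methylnaphthalene larvae and 41.9 to 120 CPM in WAF larvae, against 51.9 to 118 CPM in control larvae. The part of these tissues in the transcript shares was not tested.

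**Figure D3:**
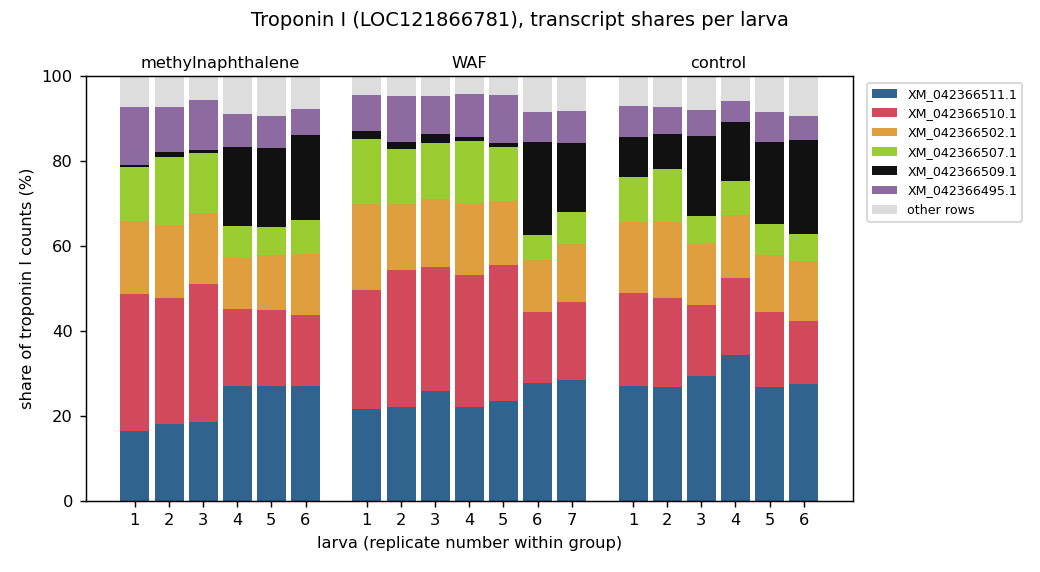
Shares of the troponin I counts (vertical axis, %) taken by its 6 transcripts with a mean share of at least 5% and by its other rows, 1 stacked bar a larva, for methylnaphthalene, WAF and control larvae by replicate number. XM_042366509.1, in black, lies at 0.579% to 2.26% in methylnaphthalene larvae 1 to 3 and WAF larvae 1 to 5, and between 8.28% and 22.2% in controls.

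The exposures were then compared transcript by transcript. The test set each transcript against its own gene in 1 edgeR quasi-likelihood fit of all 19 larvae, and a gene counted as changed at a Benjamini-Hochberg adjusted p below 0.05 over all 4430 genes tested, 298 of them among the 300. Methylnaphthalene against control gave 0 of these 298 genes (background 0.113% of all genes tested) and 0 of their 1409 transcripts (background 0.0467% of 12854). WAF against control gave 0 genes (background 0.0903%) and 0 transcripts (background 0.0389%), and methylnaphthalene against WAF gave 0 genes (background 0.0677%) and 0 transcripts (background 0.0233%). At an unadjusted p below 0.05 edgeR had 5 genes and 16 transcripts for methylnaphthalene against control (backgrounds 2.53% and 1.53%). It had 4 genes and 23 transcripts for WAF against control (backgrounds 2.17% and 1.46%), and 4 genes and 16 transcripts for methylnaphthalene against WAF (backgrounds 1.63% and 1.17%). All these backgrounds lie below the 5% that a calibrated test gives with no change, so the test was conservative on these data. Its 0 calls thus do not show that transcript use was unchanged.

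Other tools made some calls. Limma on log2 CPM called 1, 3 and 2 of the 298 genes for methylnaphthalene against control, WAF against control and methylnaphthalene against WAF, beside 0.384%, 0.248% and 0.361% of all genes. DESeq2, with each transcript set against the rest of its gene, called 17, 14 and 17, which is 5.70%, 4.70% and 5.70% of the 298 genes beside 5.44%, 4.65% and 5.73% of all genes. The DESeq2 shares lay near the background.

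Differences in mean share were common and mostly within the spread of the larvae. Mean shares lay at least 10 percentage points apart in 88 of the 1409 transcripts for methylnaphthalene against control (background 16.9% of 12854), in 114 for WAF against control (background 19%) and in 120 for methylnaphthalene against WAF (background 19.9%). The median absolute difference was 2.45, 2.70 and 2.63 points in these 3 comparisons, beside 4.01, 4.36 and 4.36 points in transcripts of other genes. Within groups the share of a transcript of these genes had a median SD of 6.39 points, beside 10.9 points in other genes. The genes were chosen for many rows, which divide the counts among more transcripts, and a small share can differ by few points only. The smaller values beside other genes are thus no sign of steadier use.

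Groups that do not overlap were few. For methylnaphthalene against control 8 of the 1409 transcripts had no overlap (background 0.794% of 12854), 4 of them higher and 4 lower in methylnaphthalene larvae. For WAF against control it was 1 transcript (background 0.109%), and for methylnaphthalene against WAF 1 transcript (background 0.187%). The 1 transcript for WAF was XM_042357939.1, the leading transcript of LOC121860664, the gene with the highest total. Its share was 10.5%, 19.6% and 25.3% at the lowest, median and highest in WAF larvae, against 26.2%, 27.5% and 33.1% in control larvae (difference -10.1 points, adjusted p = 1, edgeR). In methylnaphthalene larvae it was 8.80%, 19.3% and 28.0%.

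The unnamed gene LOC121868268 stood out among the 8, a choice made after its values were seen. Its XM_042368683.1 held 51.4% to 64.8% in methylnaphthalene larvae, against 17.0% to 49.6% in WAF larvae and 27.1% to 44.8% in control larvae, so that all methylnaphthalene larvae lay above all others. The mean difference was 22.2 points against control and 23.7 points against WAF, each with an adjusted p of 1 by edgeR, while DESeq2 gave 0.00183 against control and 0.000390 against WAF. XM_042368686.1 of the same gene was lower, at 0 to 3.55% in methylnaphthalene larvae, against 4.48% to 18.8% in control larvae. The others were XM_042359262.1 of LOC121861480 and XM_042378697.1 of LOC121874529, both higher in methylnaphthalene larvae, XM_042370022.1 of LOC121868978 and XM_042387130.1 of LOC121880079, both lower, and 1 transcript each of the 2 genes described next. All 8 had an adjusted p of 1 by edgeR. DESeq2 called 7 of them, all but XM_042368686.1, at adjusted p of 0.000150 to 0.0268.

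The largest difference of all 1409 transcripts for methylnaphthalene against control was in LOC121862189, named solute carrier organic anion transporter family member 74D-like. In Drosophila Oatp74D carries the moulting hormone ecdysone into cells. The share of its XM_042360276.1 was 14.0%, 20.7%, 31.1%, 56.5%, 63.3% and 49.2% in methylnaphthalene larvae 1 to 6. In WAF larvae 1 to 7 it was 2.96%, 5.82%, 2.02%, 2.04%, 1.35%, 49.7% and 22.4%, and in control larvae 1 to 6 it was 4.20%, 5.98%, 6.91%, 5.91%, 10.3% and 11.0%. All 6 methylnaphthalene larvae lay above all control larvae, while WAF larvae 6 and 7 lay among the methylnaphthalene larvae and the other 5 overlapped the controls or fell below them. The difference for methylnaphthalene against control was 31.8 points (log2 change relative to the gene 2.55), with an unadjusted p of 0.0126 and an adjusted p of 1 by edgeR. The rest of the counts was mostly in XM_042360274.1, which averaged 39.7 ± 15.0% in methylnaphthalene larvae (SD, n = 6), 63.3 ± 20.4% in WAF larvae (SD, n = 7) and 70.1 ± 17.5% in control larvae (SD, n = 6). Its difference for methylnaphthalene against control, -30.3 points, was not called by the main edgeR fit. The likelihood ratio form of edgeR gave it an adjusted p of 0.0451. Within groups the share of XM_042360276.1 also fell with the lncRNA share (r = -0.85). With the lncRNA share as a covariate and the log2 ratio as the measure, a setting added with the results known, limma gave it an adjusted p of 0.00980. The same measure without the covariate gave 0.494, edgeR with the covariate 0.774 and DESeq2 0.0237. Markers of the hepatopancreas, the digestive gland, did not overlap between these 2 groups either. The 17 that could be matched summed to 295 to 512 CPM in methylnaphthalene larvae and 92.7 to 349 CPM in WAF larvae, against 96.5 to 227 CPM in control larvae, with 1 of the 17 at 0 in all methylnaphthalene larvae. The 2 nervous system markers matched summed to 6.73 to 14.7 CPM in methylnaphthalene larvae and 0.420 to 11.1 CPM in WAF larvae, against 0.391 to 3.59 CPM in control larvae. Gene names came from a list ranked by differential expression under methylnaphthalene, so that markers with a name are not a neutral sample of these tissues, and their part in the transcript shares was not tested.

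Ribosome-binding protein 1-like (LOC121856093), named after a protein of the endoplasmic reticulum membrane in mammals, had 16 rows and 4 transcripts with a mean share of at least 5%. XM_042351405.1 held 20.0%, 24.2% and 26.4% at its lowest, median and highest in methylnaphthalene larvae, 22.0%, 32.1% and 35.1% in WAF larvae, and 29.9%, 35.4% and 40.5% in control larvae. All methylnaphthalene larvae lay below all controls, by a mean of 11.9 points. The adjusted p was 1 by edgeR and 0.000150 by DESeq2, which also called it for methylnaphthalene against WAF (0.0355). XM_042351401.1 held 5.78%, 14.4% and 21.0% in methylnaphthalene larvae, 2.93%, 5.15% and 18.8% in WAF larvae, and 4.12%, 5.58% and 8.88% in control larvae. Its groups overlap, its log2 change relative to the gene was 1.21 for methylnaphthalene against control, and its adjusted p was 0.363 (edgeR). With the lncRNA share as a covariate in edgeR, also added after the data were seen, this adjusted p was 0.0110, and limma on the log2 ratio gave 0.0434 with the covariate and 0.830 without it, and DESeq2 0.221. XM_042351408.1 of the same gene ran with the lncRNA share (r = 0.94) over 10.6% to 48.3% in methylnaphthalene larvae, 15.1% to 42.6% in WAF larvae and 12.8% to 39.1% in control larvae.

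**Figure D4:**
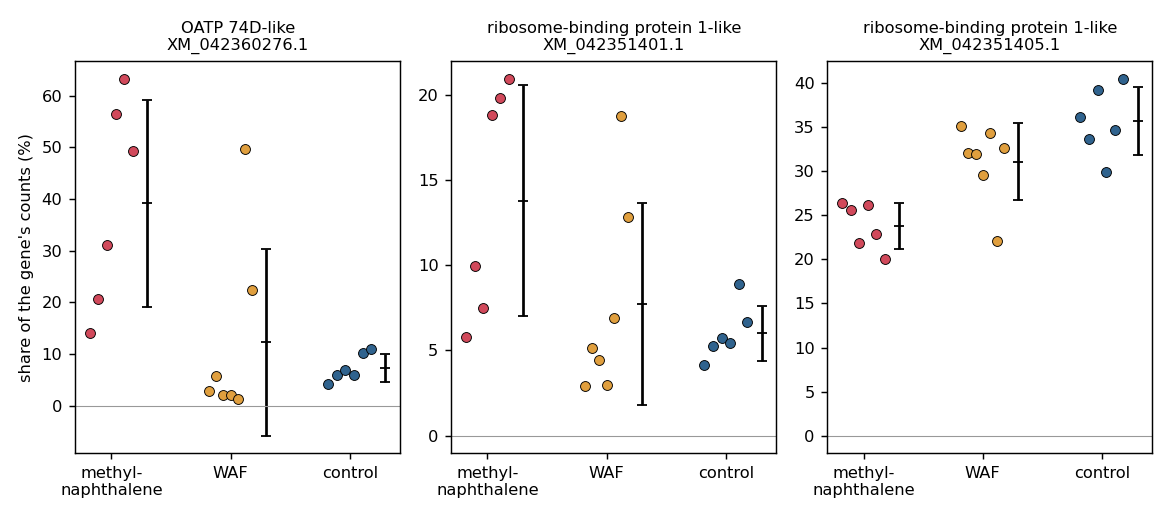
Share of the gene's counts (vertical axes, %) of XM_042360276.1 of the OATP 74D-like gene and of 2 transcripts of ribosome-binding protein 1-like, 1 point a larva, in methylnaphthalene, WAF and control larvae. Bars give the mean ± SD. XM_042360276.1 lies at 14.0% to 63.3% in methylnaphthalene larvae and at 4.20% to 11.0% in controls, and XM_042351405.1 at 20.0% to 26.4% in methylnaphthalene larvae and 29.9% to 40.5% in controls.

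The smallest gene p for methylnaphthalene against control was that of LOC121864896, an uncharacterized gene with 13 rows (adjusted p = 0.0917, edgeR). Its XR_006088688.1 was below 1 count in all 6 methylnaphthalene larvae, which at their gene totals allows shares of up to 0.549% if 3 counts are taken as the limit of a count of 0. In WAF larvae it held 56.3% in larva 1, 3.36% in larva 6 and next to nothing in the other 5. In control larvae it held 39.7% in larva 3 and 54.8% in larva 4, and 0 in the other 4. The comparison thus rests on 2 control larvae, and the transcript's adjusted p was 0.0543 by edgeR. Other edgeR settings gave 0.00963 with no filter on transcripts, 0.0187 with a mean share of at least 1%, 0.0253 with untested transcripts summed, 0.0484 with only the groups compared and 0.0293 with the lncRNA share as a covariate. The likelihood ratio form gave 1, the replicate block 1, limma on log2 CPM 0.535 and DESeq2 0.892. LOC121875177 was alike, XM_042379619.1 having 0 counts in all 6 methylnaphthalene larvae (limits of 0.743% to 2.34%), 28.1%, 20.0% and 3.06% in WAF larvae 5, 7 and 1 and 0 in the other 4, and 23.4%, 21.5% and 20.7% in control larvae 2, 3 and 6 and 0 in the other 3 (adjusted p = 0.368, edgeR).

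For WAF against control the 4 genes with the smallest p carry no annotated name. In LOC121866734 the share of XM_042366497.1 was 1.52%, 26.7% and 33.8% at the lowest, median and highest in WAF larvae, against 0.932%, 5.12% and 10.1% in control larvae (14.3 points, adjusted p = 0.175, edgeR). The 2 WAF larvae inside the control range were larvae 6 and 7, at 4.15% and 1.52%. The share rose with that of the lncRNA within groups (r = 0.82), and its log2 change relative to the gene for WAF against control, 1.97, was 0.62 with the lncRNA share as a covariate in edgeR and 0.71 in limma on the log2 ratio. In LOC121871042 XM_042373125.1 was 1.89%, 26.1% and 35.1% in WAF larvae and 1.99%, 6.86% and 26.7% in control larvae, with r = 0.95 to the lncRNA share within groups and an adjusted p of 1 by edgeR. In LOC121869632 XM_042371131.1 was below 1 count in all 7 WAF larvae, which allows up to 5.77% in the shallowest, and in 2 of 6 control larvae, while the other 4 controls held 17.5% to 32.8%. Its adjusted p was 0.273 by edgeR, 0.0430 by edgeR with no filter on transcripts and 0.0395 by DESeq2. In LOC121872563 XR_006090116.1 held 6.65e-05% to 41.3% in WAF larvae and 0 to 6.44% in control larvae. Its adjusted p was 1 by edgeR, with a log2 change relative to the gene of 3.55, and 0.00645 by DESeq2, with one of 8.62, and the edgeR change was 1.91 with the lncRNA share as a covariate.

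A pattern of presence and absence was widespread, also without exposure. Of the 1409 transcripts, 514 (36.5%), in 195 genes, were below 1 count in at least 1 larva and held 10% or more of their gene in another, beside 41.2% of such transcripts in other genes. This was so for 266 transcripts among the methylnaphthalene larvae alone, for 380 among the WAF larvae and for 298 among the control larvae. Kallisto divides a read that matches several transcripts by an estimate, and no measure of that estimate's error came with the counts, so differences between larvae and errors of the division cannot be told apart in 1 library a larva.

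A further 3 transcripts, the first 2 of them below the minimum mean share, were looked at after other settings called them. XM_042369947.1 of LOC121868909 was 13.9%, 15.1%, 11.4%, 7.20% and 15.3% in WAF larvae 1 to 5 and 0 in larvae 6 and 7. It was 18.2% in methylnaphthalene larva 3 and 0 in the other 5, and 0.0837% in control larva 4 and 0 in the other 5. WAF larvae 1 to 5 and methylnaphthalene larva 3 are the 6 larvae with the highest lncRNA shares. For WAF against control its adjusted p was 1.12e-05 when no filter was put on transcripts (edgeR). XM_042363326.1 of LOC121864252 was at most 0.0115% in WAF larvae and 1.77e-05% to 8.25% in methylnaphthalene larvae, against 2.79%, 6.46% and 11.1% at the lowest, median and highest in control larvae. No WAF larva overlapped with the controls. Its adjusted p for WAF against control was 7.83e-05 with no filter. XM_042364221.1 of LOC121864979 was 3.70%, 11.6% and 22.6% in methylnaphthalene larvae, 0, 0 and 12.1% in WAF larvae, and 0, 5.99e-08% and 6.00% in control larvae. Its difference for methylnaphthalene against control, 10.2 points, had an adjusted p of 1 by edgeR, of 0.00259 by limma on log2 CPM and of 0.0104 by DESeq2.

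Which transcript led a gene was fixed in only part of the genes. In 75 of the 300 genes the same transcript held the highest share in all 19 larvae, in 91 genes 2 transcripts did so in different larvae, and in 29 genes 5 or more did, up to 8 in LOC121862231 and LOC121871006. The transcript with the highest group mean differed between methylnaphthalene and control larvae in 45 genes and between WAF and control larvae in 56. Between methylnaphthalene and WAF larvae it differed in 55, and the main edgeR fit called none of these genes. Such genes were not counted outside the 300, so there is no background beside these counts. They are thus no result particular to the 300 genes or to exposure. The share of the leading transcript had a pooled SD within groups of 9.98 points in the median gene. It was smallest in LOC121868254 (1.16 points), whose XM_042368648.1 averaged 22.2 ± 1.20% in methylnaphthalene larvae (SD, n = 6), 22.2 ± 1.35% in WAF larvae (SD, n = 7) and 21.6 ± 0.835% in control larvae (SD, n = 6). The next were LOC121873420 (1.18 points), LOC121868246 (1.39 points) and LOC121870664 (1.86 points), 3 genes with 31 to 40 rows.

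The SD was largest, at 29.8 points, in the hemicentin-2-like gene LOC121865004, named after a large extracellular matrix protein. Its XM_042364290.1 held 5.51%, 52.8% and 85.7% at the lowest, median and highest in methylnaphthalene larvae, 1.11%, 59.3% and 80.1% in WAF larvae, and 0.446%, 46.2% and 71.4% in control larvae. The groups overlap over nearly the whole range. LOC121874550 (28.5 points), LOC121859713 (26.0 points) and LOC121856252 (25.8 points) followed, and in LOC121874550 the share of XM_042378733.1 was 9.71% to 92.2% in methylnaphthalene larvae, 10.2% to 94.9% in WAF larvae and 6.90% to 72.7% in control larvae.

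Of the 300 genes, 15 could be given a gene product name, all from that list ranked by differential expression under methylnaphthalene. Matched by words in the name and not by role, 1 belonged to the sarcomere and muscle list (troponin I). The list of channels, pumps and transporters held 2 (the OATP 74D-like gene and the oligopeptide transporter SLC15A1-like). Transcription and chromatin held 2 (histone acetyltransferase KAT6A-like and a gastrula zinc finger protein). The main edgeR fit called 0 of them in any comparison. Other edgeR settings called transcripts of troponin I and of the OATP 74D-like gene. No named gene matched the lists of splicing regulators, cytoskeleton and adhesion, or kinases and phosphatases, and 9 named genes matched no list. Names without a list's keywords were missed, among them the GATA-binding factor 5-B-like gene, CREB1-like and the keratin-like gene. In SLC15A1-like (LOC121866920) XM_042366671.1 held 44.8% to 69.3% in methylnaphthalene larvae, 45.9% to 73.3% in WAF larvae and 49.2% to 80.4% in control larvae. In the GATA-binding factor 5-B-like gene (LOC121853588), a transcription factor, XM_042347824.1 held 1.24% to 83.2% in methylnaphthalene larvae, 32.0% to 92.8% in WAF larvae and 24.4% to 100% in control larvae. Among the transcription genes, XM_042355318.1 of KAT6A-like (LOC121858716) held 53.2% to 79.8% in methylnaphthalene larvae, 46.6% to 87.9% in WAF larvae and 34.1% to 79.1% in control larvae. CREB1-like (LOC121857049) is named after a factor that answers to cyclic AMP. Its XM_042352913.1 held 16.8% to 55.6% in methylnaphthalene larvae, 21.8% to 40.4% in WAF larvae and 19.0% to 41.2% in control larvae. In the gastrula zinc finger gene (LOC121857308) XM_042353304.1 held 29.5% to 59.7% in methylnaphthalene larvae, 11.4% to 45.3% in WAF larvae and 18.2% to 34.3% in control larvae. All of these ranges overlap between the groups.

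The groups also overlapped in the following transcripts of other named genes. In cytohesin-1-like (LOC121868387), named after an activator of Arf GTPases, XM_042368952.1 held 29.7% to 44.2% in methylnaphthalene larvae, 27.6% to 48.5% in WAF larvae and 19.9% to 44.0% in control larvae. Of the remaining genes, the keratin, type I cytoskeletal 9-like gene (LOC121856668) had XM_042352338.1 at 47.9% to 58.9% in methylnaphthalene larvae, 44.3% to 69.6% in WAF larvae and 52.4% to 72.8% in control larvae. The prefoldin-related URI1-like gene (LOC121873432) varied more, with XM_042377023.1 at 9.89% to 61.3% in methylnaphthalene larvae, 12.7% to 83.0% in WAF larvae and 17.3% to 61.8% in control larvae. In PRY1-like (LOC121875743), XM_042380417.1 held 0 to 61.1% in methylnaphthalene larvae, 0 to 46.8% in WAF larvae and 2.82e-09% to 39.1% in control larvae, so it was at or near 0 in 1 or more larvae of every group. In MFSD9-like (LOC121854088), named after a membrane transporter family, XM_042348558.1 held 18.5% to 35.9% in methylnaphthalene larvae, 3.38% to 58.4% in WAF larvae and 19.1% to 53.9% in control larvae.

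DESeq2 called further transcripts of these named genes that edgeR did not. In MFSD9-like, XM_042348516.1 held 3.67% to 30.2% in methylnaphthalene larvae, 0 to 7.50% in WAF larvae and 0 to 4.21% in control larvae (DESeq2 adjusted p = 0.00864 against control and 0.0127 against WAF), and limma on the log2 ratio with the lncRNA share as a covariate gave 0.0236 against control. XM_042348492.1 of the same gene held 5.21% to 16.6% in methylnaphthalene larvae, against 0 to 11.7% in control larvae (DESeq2 adjusted p = 0.0157). In the GATA-like gene, XM_042347819.1 held 9.90% to 38.0% in methylnaphthalene larvae, from near 0 to 41.1% in WAF larvae and from near 0 to 42.5% in control larvae (DESeq2 adjusted p = 0.00240 for methylnaphthalene and 0.0193 for WAF, each against control). These transcripts were below 1 count in 4 of the 6 control larvae. In URI1-like, XM_042377038.1 held 0 to 2.74% in WAF larvae, against 0 to 12.3% in control larvae (DESeq2 adjusted p = 0.0198). In PRY1-like, XM_042380418.1 held 0 to 40.8% in methylnaphthalene larvae, against 0 to 35.5% in WAF larvae (DESeq2 adjusted p = 0.0192). The groups overlap in each, by 1 or more larvae.

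Pairs of larvae of 1 exposure differed in transcript use by about as much as pairs of different exposures, a description with no test. The difference between a pair of larvae was taken as the summed absolute difference in share over the rows of a gene, divided by 2 and averaged over the 300 genes, which is the percentage of a gene's counts that would have to move to another transcript. It averaged 26.4% over 15 pairs of methylnaphthalene larvae, 28.2% over 21 pairs of WAF larvae and 25.1% over 15 pairs of control larvae. Between groups it averaged 26.0% for methylnaphthalene with control, 27.0% for WAF with control and 27.7% for methylnaphthalene with WAF. The nearest larva was of the same group for 9 of the 19 larvae. The most alike pair of all was methylnaphthalene larva 5 and WAF larva 6 (16.7%), with lncRNA shares of 7.44% and 7.47%, and the least alike were WAF larva 1 and WAF larva 6 (39.7%).

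**Figure D5:**
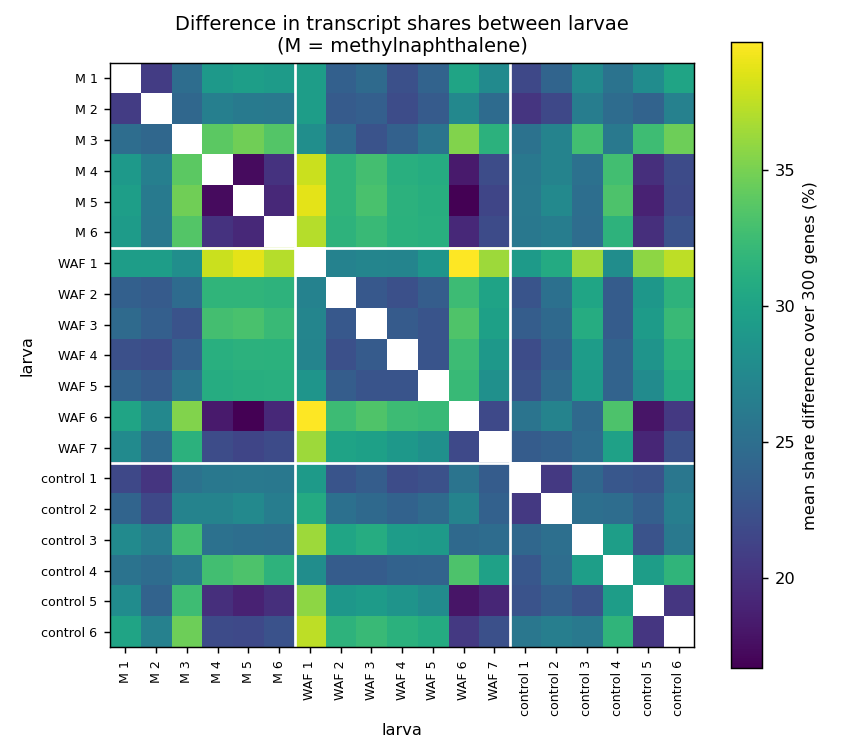
Difference in transcript shares between each pair of the 19 larvae (colour, mean over 300 genes, %), with larvae on both axes ordered by group and replicate and white lines between groups (M, methylnaphthalene). The darkest cell is methylnaphthalene larva 5 with WAF larva 6 at 16.7% and the brightest is WAF larva 1 with WAF larva 6 at 39.7%.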

How the data were processed

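The authors trimmed reads with fastp (minimum quality 25) and deposited expected counts, estimated by Kallisto per RefSeq transcript of GMGI_Hamer_2.0 without normalization. Replicates were separate larvae. All 46006 transcripts were assigned to genes by the RefSeq annotation of that assembly. Gene product names, and no values, came from a supplementary list of 1999 genes ranked by differential expression under methylnaphthalene, so most genes stay unnamed. The result of 1 named gene is not reported here. No transcript sequence, length or chromosome was used here. The table of ortholog groups was not used.

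Counts were rounded and fitted in R 4.3.3 with edgeR 4.0.16 (TMM, quasi-likelihood, all 19 larvae, no covariate), and transcript use was tested with diffSpliceDGE and the Simes method per gene. Tested transcripts had a gene total of at least 50 in every larva, a mean count of at least 10 and a mean share of at least 5%, in genes with at least 2 such transcripts. Benjamini-Hochberg adjustment was over all tested. The scripts were tested on simulated data. Alternatives used limma 3.58.1 and DESeq2 1.42.0. Descriptions used Python 3.11.15, pandas 2.3.3 and scipy 1.17.1.

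Named genes were, for each exposure, called genes or, with none called, the 4 with the smallest p, the 5 with most rows, the 5 with the highest total, the 4 with the largest and the 4 with the smallest SD of the leading share, and members of the gene lists. Other transcripts were chosen after their values were seen. The 300 genes and the lists were chosen with earlier results of these data known. Intervals and limits cover counting error only.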

Additional observations from a re-analysis of the deposited data

Results flagged for a closer look

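Of 92 sets of values looked at (1 transcript or summary in 1 group of 6 or 7 larvae), 14 had a highest or lowest larva that stood apart from the rest by Dixon's criterion. Normally distributed values meet it by chance in about 1 of 20 sets. A set with all larvae but 1 at 0 always meets it, and some sets were of this kind. The 14 are thus no measure of an excess over chance. In methylnaphthalene larvae these were larva 3 for XM_042366497.1 of LOC121866734 (41.1%), for XM_042387124.1 of LOC121880079 (40.1%) and for XM_042369947.1 of LOC121868909 (18.2%), larva 6 for XM_042363326.1 of LOC121864252 (8.25%), and larva 2 for XR_006088688.1 of LOC121864896, whose 2.12e-07% is no more than an estimate next to zeros. In WAF larvae they were larva 1 for XR_006088688.1 (56.3%) and for XM_042364221.1 of LOC121864979 (12.1%), and larva 7 for XM_042363326.1 (0.0115%).

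In control larvae larva 4 stood apart in 5 values. Its shares were 33.1% for XM_042357939.1 of LOC121860664, 34.3% for XM_042366511.1 of troponin I, 15.9% for XM_042372581.1 of LOC121870664 and 0.0837% for XM_042369947.1, and the median over the 300 genes of the highest share in a gene was 47.9%. Control larva 2 stood apart for XR_006090116.1 of LOC121872563 (6.44%). Control larva 4 also had the highest lncRNA share among the controls, 20.5%.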

How the results depend on the processing

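The counts of 0 genes and 0 transcripts were kept with DESeq2 size factors, without TMM, with a gene minimum of 10 counts and with identical transcripts merged. They moved under the other settings as follows, given in the order methylnaphthalene against control, WAF against control and methylnaphthalene against WAF. With no filter on transcripts there were 8, 8 and 1 genes (11, 11 and 2 transcripts). These were 2.67%, 2.67% and 0.333% of the 300 genes, beside 0.467%, 0.386% and 0.163% of all genes tested. With a mean share of at least 1% there were 3, 5 and 1 genes (6, 5 and 2 transcripts). These were 1%, 1.67% and 0.333%, beside 0.212%, 0.36% and 0.19% of all genes. A minimum in 6 larvae gave 1, 1 and 0 genes (1, 1 and 0 transcripts), beside 0.111%, 0.0888% and 0.0444% of all genes. Both calls were XM_042369947.1 of LOC121868909. It met that minimum only through WAF larvae 1 to 5 and methylnaphthalene larva 3, where it was high, so these calls lend no support. Summing untested transcripts gave 1 (0.336% of 298), 0 and 0 genes (1, 0 and 1 transcripts), beside 0.203%, 0.203% and 0.158%. The likelihood ratio form gave 0, 1 and 1 genes (1, 1 and 1 transcripts), beside 0.384%, 0.113% and 0.248% of all genes. Limma on log2 CPM gave 1, 3 and 2 genes (1, 3 and 2 transcripts), beside 0.384%, 0.248% and 0.361%. Fits of only the groups compared gave 0, 0 and 0 genes (1, 0 and 0 transcripts), beside 0.293%, 0.158% and 0.0903%. DESeq2 gave 17, 14 and 17 genes (23, 20 and 27 transcripts), beside 5.44%, 4.65% and 5.73%. Of the settings added after the data were seen, the lncRNA share as a covariate gave 3, 2 and 1 genes (4, 3 and 1 transcripts), the log2 ratio in limma 0, 0 and 0 genes, and both together 2, 0 and 0 genes (5, 0 and 0 transcripts). Without each larva in turn the genes stayed at 0 and the transcripts at 0 to 1, 0 and 0. With the replicate number as a block there were 0, 1 and 0 genes (0, 1 and 0 transcripts), the 1 being troponin I. Beside them stood 0.0903%, 0.135% and 0% of all genes. Of 18 same-numbered pairs of larvae, 11 had deviations correlated above 0.1, with r between -0.33 and 0.46 over all 18. Differently numbered larvae were not compared, so whether the numbers pair the larvae was not tested. The log2 change of XM_042373125.1 of LOC121871042 for WAF against control, 1.05, reversed with the lncRNA share as a covariate, to -0.43 in edgeR and -0.33 in limma on the log2 ratio; it has r = 0.95 with that share. Differences in the effective number moved with the larva left out, from -0.105 to 0.112 for methylnaphthalene minus control, from -0.389 to -0.165 for WAF minus control and from 0.168 to 0.392 for methylnaphthalene minus WAF. Thinning, the minimum share and shares among tested transcripts moved no other value by more than 1 SD. Shares per transcript length were not run, since no lengths were used here. Shares of genes near 50 counts rest on few reads, and rare transcripts cannot be compared there.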
